A study of Mus musculus with 12 samples.

Results

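The 8 genes described here code for proteins of the red cell membrane, its underlying skeleton and blood group antigens: Slc4a1, Epb42, Sptb, Ank1, Rhag, Rhd, Ermap and Kel. They were taken by symbol from the 55291 symbols of the count table, and all 8 passed the filter on low counts, which left 15674 genes. RNA was sequenced from the non-adherent progenitor fraction of mouse bone marrow, obtained at 8 weeks of age after a culture of about 24 hours in the medium alpha-MEM. The 12 libraries fell into 4 groups of 3. Homozygous SCFA mice were labelled STAT3Cstopfl/fl CD4Cre and drank water with short-chain fatty acids (SCFAs), which gut bacteria make from fibre. Control SCFA mice were labelled control and had the same water. Homozygous untreated mice carried the label STAT3Cstopfl/fl CD4Cre in 2 libraries and R26STAT3Cstopfl/fl CD4Cre in replicate 1, and had no SCFAs. Control untreated mice were labelled control, with no further detail of their alleles, and had no SCFAs. STAT3C is a constitutively active form of the transcription factor STAT3 that follows a stop cassette, and the CD4 promoter drives the Cre that removes the cassette mainly in T cells.

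Red cells owe their shape and strength to a mesh of spectrin beneath the membrane. Ankyrin ties this mesh to the anion exchanger band 3, and protein 4.2 and the Rh proteins belong to the same complex. These genes are switched on during erythroid maturation in the marrow, under factors that include GATA1, TAL1 and KLF1, and several of the human proteins carry blood group antigens.

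Total counts were 16954355 to 20748995 per library, and the 8 genes had 39 to 13874 counts. Stat3, whose active form the transgene encodes, had 363 ± 40.3 CPM in homozygous SCFA, 240 ± 13.9 CPM in control SCFA, 294 ± 27.3 CPM in homozygous untreated and 357 ± 82.0 CPM in control untreated (SD, n = 3). It was higher in homozygous SCFA than in control SCFA (log2 fold change 0.60 ± 0.15 SE, adjusted p = 0.0157), and lower in control SCFA than in control untreated (-0.58 ± 0.15, adjusted p = 0.0192). Homozygous untreated against control untreated gave -0.28 ± 0.15 (adjusted p = 0.221), and the interaction was 0.88 ± 0.22 (adjusted p = 0.011). The library control untreated 2 stood apart on the second principal component, at 87.4 against 4.63 and 41.5 for the others of its group. Every untreated library is dated day 1 and every SCFA library day 30 of month 3, so treatment and date cannot be told apart. Whether each library is from a mouse of its own is not in the labels, so the p-values here measure spread that may be technical. Of the erythroid markers, 8 of 8 had counts in every group, with sums of 2218 to 2631 CPM (counts scaled to library size) in homozygous SCFA, 11147 to 13161 in control SCFA, 8263 to 11500 in homozygous untreated and 17427 to 19418 in control untreated. Globins made up much of these sums, the beta globin Hbb-bs alone averaging 1104 CPM in homozygous SCFA and 6908 CPM in control SCFA. By edgeR's test 6 of the 8 markers were lower and 2, Klf1 and Gata1, higher in homozygous SCFA than in control SCFA. Of all genes 8.47% were lower and 8.89% higher there. Neutrophil markers summed to 35409 to 75229 CPM over the 12 libraries, so the cells were a mixture. In such bulk RNA, fewer cells of a type and less RNA per cell cannot be told apart.

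Per kilobase of exon, Slc4a1 was the most abundant of the 8 transcripts, with a mean level of 61.4 RPKM (reads per kilobase of exon, scaled to library size) over the 12 libraries. Rhd averaged 12.6 RPKM, Epb42 12.3 RPKM, Rhag 12.1 RPKM and Kel 9.05 RPKM. Ermap followed at 5.38 RPKM, Sptb at 1.08 RPKM and Ank1 at 0.517 RPKM. With the length of the longest transcript in place of all exons, Epb42 (16.2 RPKM) came before Rhd (13.2 RPKM) and the other ranks stayed. The middle ranks depended on the group: in homozygous SCFA the order after Slc4a1 (23.4 ± 3.20 RPKM, SD, n = 3) was Rhag (7.85 ± 0.397), Rhd (6.20 ± 1.71), Kel (4.10 ± 1.26) and Epb42 (3.25 ± 0.322). In control SCFA, Epb42 came next after Slc4a1 (31.6 ± 2.46 RPKM) at 7.55 ± 0.135 RPKM, while Rhag came after Kel and Rhd at 4.39 ± 0.634 RPKM.

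All 8 genes are protein-coding. On mm10, Slc4a1 lies on chromosome 11 from 102348824 to 102366203, Epb42 on chromosome 2 from 121017891 to 121037072, Sptb on chromosome 12 from 76580488 to 76710547 and Ank1 on chromosome 8 from 22974844 to 23150497. Rhag lies on chromosome 17 from 40811126 to 40840754 and Kel on chromosome 6 from 41686330 to 41704339. Rhd (134864536 to 134896172) and Ermap (119175457 to 119190011) are both on chromosome 4. Exons of Sptb overlap Plekhg3 on the opposite strand only at position 76580488, where the spans of both genes meet. Exons of Ank1 overlap the antisense gene Gm15816, which spans 23138794 to 23149585. The strand setting of the counting is not given in the sources used here, so reads from shared exon bases cannot be told apart.

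The promoters of 5 genes are shown because 4 of them hold the letters bound by GATA factors close to the start and the other, Sptb, holds those of KLF1. Sequences are RefSeq's for build GRCm38.p6, each the 130 bases before the RefSeq start on the gene's own strand, 5′ to 3′. Capitals mark the letters searched for on both strands, which for GATA factors were AGATAA and also AGATAG, as well as TGATAA and also TGATAG, and for KLF1 were CCNCNCCC. A match on the other strand is printed as it reads on the gene's strand.
Rhag (chr17:40811019-40811148, plus strand): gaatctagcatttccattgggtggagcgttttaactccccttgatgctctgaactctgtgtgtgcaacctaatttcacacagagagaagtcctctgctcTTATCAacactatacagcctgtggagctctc
Rhd (chr4:134864406-134864535, plus strand): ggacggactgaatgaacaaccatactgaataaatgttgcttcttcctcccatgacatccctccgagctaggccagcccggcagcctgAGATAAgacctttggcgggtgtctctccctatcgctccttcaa
Ermap (chr4:119189996-119190125, minus strand): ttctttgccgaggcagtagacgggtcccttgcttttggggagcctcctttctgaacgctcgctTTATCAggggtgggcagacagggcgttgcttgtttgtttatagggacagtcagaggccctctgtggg
Kel (chr6:41704326-41704455, minus strand): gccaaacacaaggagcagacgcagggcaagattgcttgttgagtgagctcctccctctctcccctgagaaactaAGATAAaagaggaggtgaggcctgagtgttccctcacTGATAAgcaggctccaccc
Sptb (chr12:76710548-76710677, minus strand): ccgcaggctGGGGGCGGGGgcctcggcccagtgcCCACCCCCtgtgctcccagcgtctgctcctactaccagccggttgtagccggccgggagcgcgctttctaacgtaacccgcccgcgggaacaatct

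The GATA letters began 31 bases before the start of Rhag, 43 before that of Rhd, 67 before that of Ermap, and 56 and 19 before that of Kel. Within 130 bases they stood in 4 of the 6 promoters that the sequence table lists (the 5 above and Epb42), and in 13.9% of all 32851 promoters in windows of that length. Within 250 bases they stood in 5 of 6, Epb42 included, where they began 226 bases before the start, and in 26.5% of all promoters. CCNCNCCC stood in 1 of 6, the Sptb promoter, with 3 matches of which the first pair overlap each other, and in 45.9% of all promoters over 250 bases. CANNTG, the E-box letters that TAL1 and many other factors bind, was found in Epb42, Sptb and Kel and in 66.2% of all promoters. These matches describe letters, not binding.

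**Figure D1:**
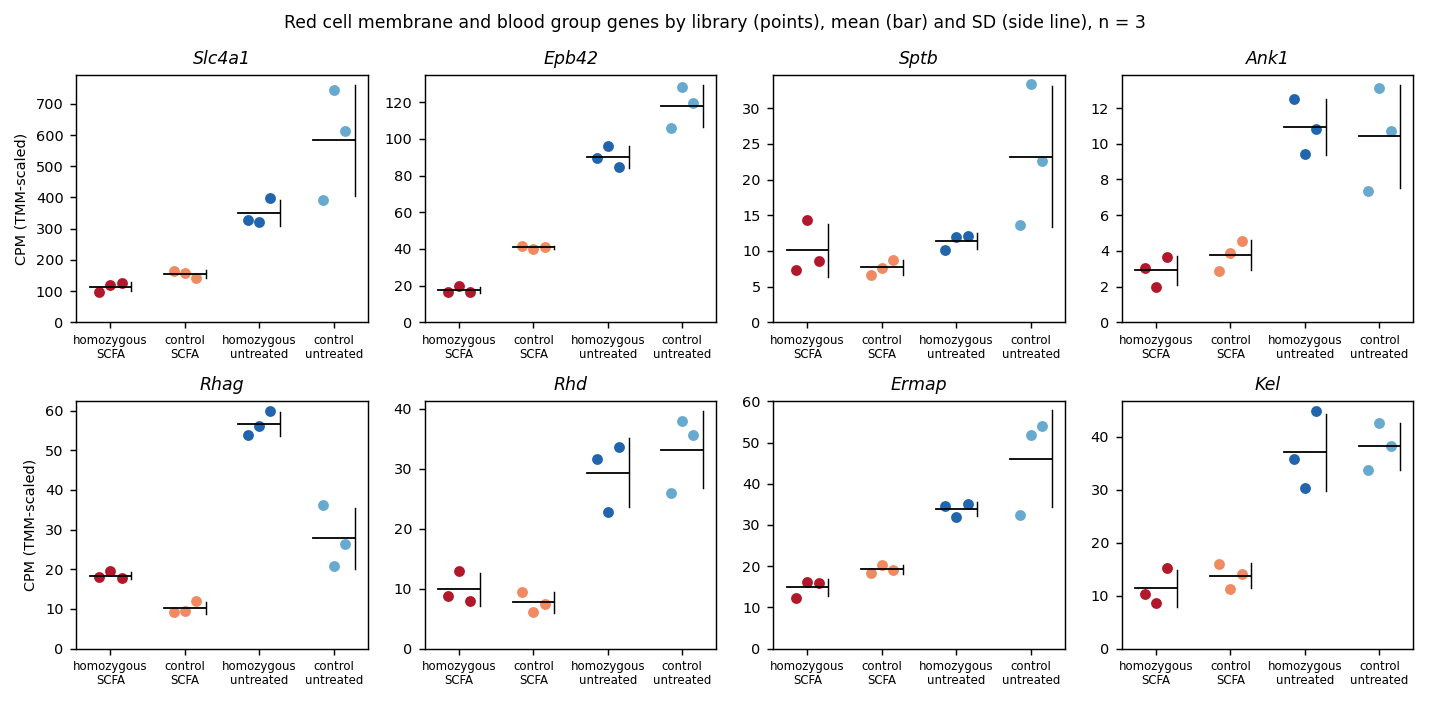
CPM of each gene (y axis, linear, its own scale per panel) in the 12 libraries by group; points are libraries, bars the mean of 3 and side lines the SD. For every gene but Sptb, SCFA libraries lie below the untreated libraries of the same genotype, and Rhag alone has its highest libraries, 53.9 to 59.9 CPM, in homozygous untreated mice with none of another group among them.

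In control mice, all 8 genes were lower under SCFAs. Called genes, those with an adjusted p under 0.05, were 13% of the 15674 tested in this direction and 21.9% in either, and the median log2 fold change was -1.50 for the 8 genes and 0.04 for all genes. In each of the 8, every control SCFA library lay below every control untreated library, as it did for 20.8% of all genes. In homozygous mice 7 of 8 were lower under SCFAs, Sptb being the exception, against 5.61% of all genes; 3.96% of all genes were called higher and 9.58% either way. The median there was -1.62 for the 8 genes and -0.00 for all genes, and the same 7 had libraries that did not overlap, as did 16.2% of all genes. These counts of 8 and 7 held with each of the 12 libraries left out in turn.

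Slc4a1 codes for band 3, the chloride and bicarbonate exchanger that anchors the skeleton and in humans carries the Diego antigens. It had 96.9, 118 and 127 CPM in homozygous SCFA, against 328, 322 and 399 CPM in homozygous untreated. Its values were 166, 157 and 142 CPM in control SCFA, against 392, 744 and 612 CPM in control untreated. All 6 SCFA libraries lay below all 6 untreated ones. Slc4a1 was 3.07-fold lower in homozygous SCFA than in homozygous untreated (log2 -1.62 ± 0.20, adjusted p = 7.67e-05) and 3.77-fold lower in control SCFA than in control untreated (-1.91 ± 0.20, adjusted p = 0.000201).

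Epb42, the gene of protein 4.2, which is related to transglutaminases but has no such activity and binds band 3, had 4 separate groups of libraries. Its levels were 16.6, 19.6 and 16.6 CPM in homozygous SCFA, 41.4, 40.1 and 41.2 CPM in control SCFA, 89.4, 96.3 and 84.5 CPM in homozygous untreated, and 106, 129 and 120 CPM in control untreated. No library of one group reached into the range of another. Epb42 fell 5.11-fold in homozygous SCFA relative to homozygous untreated (log2 -2.35 ± 0.13, adjusted p = 3.74e-08) and 2.89-fold in control SCFA relative to control untreated (-1.53 ± 0.12, adjusted p = 4.04e-05). The SCFA difference was larger in homozygous mice: the interaction, the difference in homozygous mice minus that in control mice, was -0.82 ± 0.17 on the log2 scale (adjusted p = 0.00549).

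Sptb codes for the erythroid beta chain of spectrin. It had 7.30, 14.3 and 8.61 CPM in homozygous SCFA, 6.66, 7.65 and 8.78 CPM in control SCFA, 10.1, 12 and 12 CPM in homozygous untreated, and 13.6, 33.4 and 22.6 CPM in control untreated. Control untreated had the highest mean and a wide spread, and replicate 2 of homozygous SCFA lay above the homozygous untreated libraries and above control untreated 1. Sptb was 3.02-fold lower in control SCFA than in control untreated (log2 -1.59 ± 0.31, adjusted p = 0.00613), whereas homozygous SCFA against homozygous untreated gave -0.17 ± 0.30 (adjusted p = 0.788). The interaction was 1.42 ± 0.43 (adjusted p = 0.0269); without control untreated 2 it was 1.11 (adjusted p = 0.0673) and without homozygous SCFA 2 it was 1.06 (adjusted p = 0.0867). It also missed the threshold without homozygous untreated 1 (adjusted p = 0.0629), homozygous untreated 2 (0.0528), control SCFA 1 (0.0586) or control SCFA 2 (0.0555).

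Ank1, ankyrin 1, links spectrin to band 3 and had the fewest counts of the 8 genes. It had 3.06, 1.99 and 3.65 CPM in homozygous SCFA, against 12.5, 9.41 and 10.8 CPM in homozygous untreated. It had 2.85, 3.87 and 4.57 CPM in control SCFA, against 7.36, 13.1 and 10.7 CPM in control untreated. The SCFA libraries of both genotypes overlapped, and so did the untreated ones. Ank1 was 3.77-fold lower in homozygous SCFA than in homozygous untreated (log2 -1.91 ± 0.30, adjusted p = 0.000839) and 2.77-fold lower in control SCFA than in control untreated (-1.47 ± 0.29, adjusted p = 0.00678).

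Rhag codes for the Rh-associated glycoprotein, a membrane channel for ammonia that the Rh antigen proteins need to reach the surface. It had 17.9, 19.4 and 17.7 CPM in homozygous SCFA, against 53.9, 56.0 and 59.9 CPM in homozygous untreated, and 9.32, 9.51 and 12 CPM in control SCFA, against 36.1, 20.9 and 26.4 CPM in control untreated. Its 4 groups did not overlap, and within each treatment the homozygous libraries were above the control ones. Rhag fell 3.08-fold in homozygous SCFA relative to homozygous untreated (log2 -1.62 ± 0.19, adjusted p = 5.09e-05) and 2.71-fold in control SCFA relative to control untreated (-1.44 ± 0.19, adjusted p = 0.00105). The interaction was -0.19 ± 0.26 (adjusted p = 0.637).

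Rhd, the Rh antigen gene of the mouse, forms the Rh complex with Rhag. It had 8.80, 13.0 and 7.87 CPM in homozygous SCFA, against 31.7, 22.8 and 33.7 CPM in homozygous untreated, and 9.51, 6.18 and 7.42 CPM in control SCFA, against 25.9, 38.0 and 35.7 CPM in control untreated. Both genotypes overlapped within each treatment. Rhd was 2.97-fold lower in homozygous SCFA than in homozygous untreated (log2 -1.57 ± 0.24, adjusted p = 0.000739) and 4.31-fold lower in control SCFA than in control untreated (-2.11 ± 0.25, adjusted p = 0.000464).

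Ermap codes for an erythroid membrane protein of the butyrophilin family that carries the Scianna antigens in humans, and Kel for a metallopeptidase that can process endothelin 3 and in humans carries the Kell antigens. Ermap had 12.3, 16.2 and 16 CPM in homozygous SCFA, against 34.5, 31.9 and 35.1 CPM in homozygous untreated, and 18.3, 20.3 and 19.1 CPM in control SCFA, against 32.5, 51.8 and 53.9 CPM in control untreated. Kel had 10.3, 8.59 and 15.3 CPM in homozygous SCFA, against 35.8, 30.4 and 44.9 CPM in homozygous untreated, and 16, 11.3 and 14.1 CPM in control SCFA, against 33.7, 42.6 and 38.3 CPM in control untreated. In both genes every SCFA library was below every untreated one. Ermap was 2.28-fold lower in homozygous SCFA than in homozygous untreated (log2 -1.19 ± 0.19, adjusted p = 0.00101) and 2.40-fold lower in control SCFA than in control untreated (-1.26 ± 0.19, adjusted p = 0.00246). Kel was 3.26-fold lower in homozygous SCFA than in homozygous untreated (log2 -1.71 ± 0.23, adjusted p = 0.000197) and 2.77-fold lower in control SCFA than in control untreated (-1.47 ± 0.22, adjusted p = 0.00278).

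**Figure D2:**
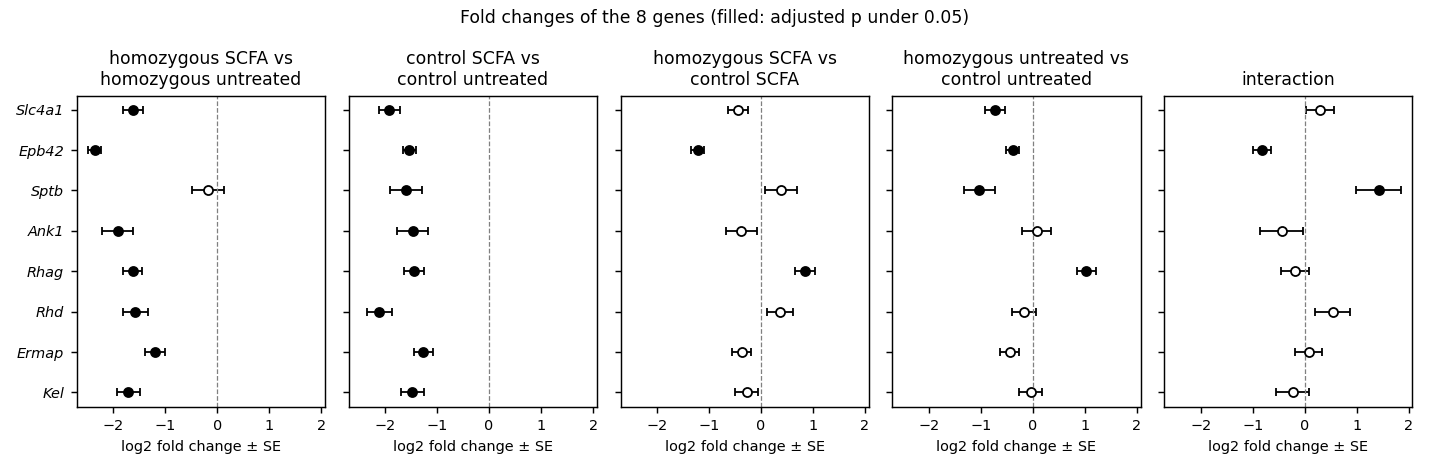
Log2 fold changes (x axis) with their SE for the 8 genes (rows) in 4 comparisons and the interaction; filled points passed an adjusted p of 0.05. Points lie left of 0 in both SCFA comparisons, from -2.35 for Epb42 to -0.17 for Sptb, while in both genotype comparisons Rhag lies to the right.

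Between genotypes, the 8 genes did not move together. In homozygous SCFA against control SCFA, Rhag was higher and Epb42 lower, and the other 6 did not pass the test. Of all genes 8.89% were called higher and 8.47% lower, 17.4% in all, and the median of the 8 genes was -0.33, against -0.02 over all genes. Rhag was 1.79 times as high (log2 0.84 ± 0.19, adjusted p = 0.008), and Epb42 was 2.32-fold lower (-1.21 ± 0.13, adjusted p = 1.34e-05); both held with each library left out. The values for the others were -0.44 ± 0.19 for Slc4a1 (adjusted p = 0.133), 0.39 ± 0.31 for Sptb, -0.38 ± 0.30 for Ank1, 0.36 ± 0.25 for Rhd, -0.37 ± 0.19 for Ermap and -0.28 ± 0.23 for Kel. Homozygous SCFA libraries lay wholly below control SCFA libraries for Slc4a1, Epb42 and Ermap and wholly above them for Rhag, as 19.8% of all genes did in each direction.

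In homozygous untreated against control untreated, Rhag was again higher, and Slc4a1, Epb42 and Sptb were lower. Of all genes 6.69% were called higher and 8.13% lower, 14.8% in all. Libraries did not overlap for Rhag (higher, as for 14.7% of all genes) and for Epb42 and Sptb (lower, as for 17.7%). The median was -0.28 for the 8 genes and -0.04 for all genes. Rhag was 2.04 times as high (log2 1.03 ± 0.18, adjusted p = 0.00294) and was called with each library left out. Slc4a1 was 1.67-fold lower (-0.74 ± 0.19, adjusted p = 0.0222) although its libraries overlapped, Epb42 1.31-fold lower (-0.39 ± 0.12, adjusted p = 0.0442) and Sptb 2.04-fold lower (-1.03 ± 0.30, adjusted p = 0.0359). Without control untreated 2 the adjusted p was 0.0892 for Slc4a1, 0.132 for Epb42 and 0.175 for Sptb, and with only the libraries of both groups none of the 3 was called. The call of Slc4a1 was also lost without control untreated 3, homozygous untreated 1 or homozygous untreated 2, and that of Epb42 without any library but control untreated 1. That of Sptb was also lost without control untreated 3, control SCFA 2 or any homozygous untreated library. Values for the others were 0.07 for Ank1 (adjusted p = 0.891), -0.18 for Rhd (0.631), -0.45 ± 0.18 for Ermap (0.112) and -0.04 for Kel (0.91).

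Each genotype comparison uses other libraries, but both SCFA comparisons share libraries with them. The interaction was called for 2 of the 8 genes, Epb42 and Sptb, about the share called among all genes (25.1%). It was 0.30 ± 0.27 for Slc4a1 (adjusted p = 0.442), -0.44 ± 0.41 for Ank1, 0.54 ± 0.34 for Rhd, 0.07 ± 0.26 for Ermap and -0.23 ± 0.31 for Kel.

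Set against the mean log2 CPM of the other 7 genes in the same library, Rhag stood above in homozygous mice and below in control mice. The difference was 0.55, 0.44 and 0.29 in homozygous SCFA, -0.84, -0.74 and -0.53 in control SCFA, 0.45, 0.64 and 0.51 in homozygous untreated, and -0.08, -1.57 and -1.03 in control untreated. Genotypes did not overlap, whatever the treatment. Within control untreated, replicate 1 had a log2 CPM of Rhag 0.41 above the group mean while the other 7 genes lay 0.15 to 0.67 below theirs, and replicate 2 had Rhag 0.37 below while the others lay 0.13 to 0.61 above. The difference of Epb42 from the other 7 was 0.35 ± 0.14 in homozygous SCFA, 1.57 ± 0.07 in control SCFA, 1.30 ± 0.23 in homozygous untreated and 1.52 ± 0.14 in control untreated (SD, n = 3). For Sptb it was -0.62 ± 0.48 in homozygous SCFA, -1.18 ± 0.19 in control SCFA, -2.11 ± 0.20 in homozygous untreated and -1.25 ± 0.44 in control untreated.

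**Figure D3:**
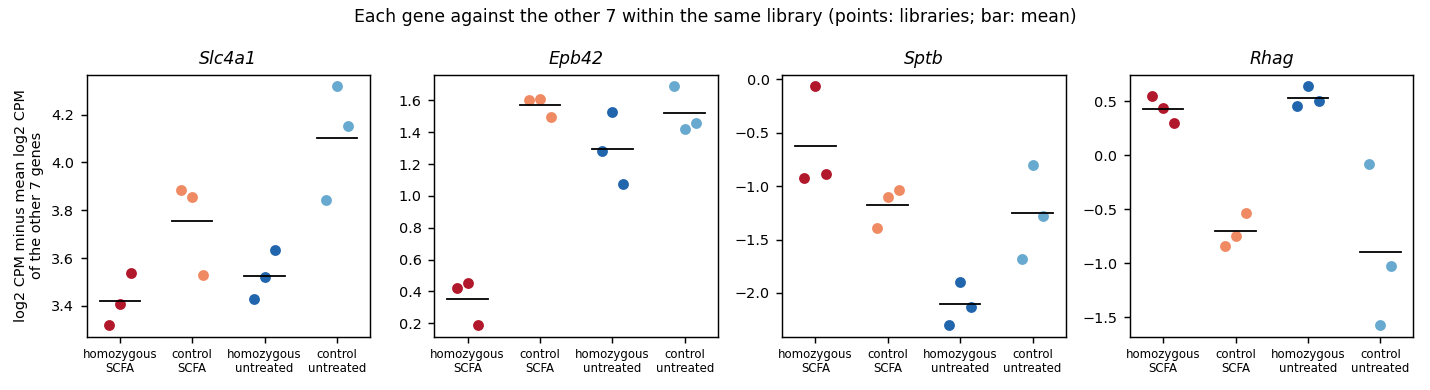
Log2 CPM of 4 genes minus the mean log2 CPM of the other 7 (y axis) in each library, by group; points are libraries and bars the mean of 3. Epb42 is lowest in homozygous SCFA at 0.19 to 0.45, and Rhag is above 0 in homozygous libraries and below 0 in control ones.

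Some other genes of the red cell membrane and skeleton were also lower under SCFAs. Of 14 tested, 7 were lower and none higher in homozygous SCFA against homozygous untreated (median -0.77), where 5.61% of all genes were lower. In control SCFA against control untreated, 7 were lower and none higher (median -0.63), where 13% of all genes were lower. Not all means fell: the uncalled Slc2a1 averaged 47.3 CPM in homozygous SCFA and 34.2 CPM in homozygous untreated. Tmod1, which caps the short actin filaments of the skeleton, was lower in homozygous SCFA than in homozygous untreated (log2 -2.07 ± 0.20, adjusted p = 1.09e-05). Epb41, protein 4.1, which joins spectrin to actin, was lower in control SCFA than in control untreated (-0.96 ± 0.16, adjusted p = 0.00402), as was the tetraspanin Tspan33 (-1.27 ± 0.22, adjusted p = 0.0045).

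Between genotypes, 2 of these 14 genes were higher and 5 lower in homozygous SCFA against control SCFA, and 2 higher and 3 lower in homozygous untreated against control untreated. Tmod1 was lower in homozygous SCFA than in control SCFA (log2 -1.89 ± 0.20, adjusted p = 1.9e-05). Epb41 (-0.84 ± 0.16, adjusted p = 0.00402) and Tmod1 (-0.93 ± 0.19, adjusted p = 0.00689) were lower in homozygous untreated than in control untreated. Among the 14 the interaction was called higher for 2 and lower for 4, with the glucose transporter Slc2a1 at 1.12 ± 0.22 (adjusted p = 0.00381). Of all genes, 8.89% were called higher and 8.47% lower in homozygous SCFA against control SCFA. The shares were 6.69% and 8.13% in homozygous untreated against control untreated, and 13.6% and 11.6% for the interaction.

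The other blood group genes, many of them active in other cells too, gave mixed directions. Of 19 tested, 3 were higher and 1 lower in homozygous SCFA against homozygous untreated (median 0.17), where 3.96% of all genes were higher and 5.61% lower. In control SCFA against control untreated none was higher and 4 were lower (median -0.26), where 8.89% of all genes were higher and 13% lower. Art4, the mono-ADP-ribosyltransferase that carries the human Dombrock antigens, was lower in both, at -1.46 ± 0.20 (adjusted p = 0.000313) and -1.20 ± 0.20 (adjusted p = 0.00422). Bsg, basigin, was lower in control SCFA than in control untreated (-0.62 ± 0.12, adjusted p = 0.00671). The water channel Aqp1 was higher in homozygous SCFA than in homozygous untreated (2.38 ± 0.32, adjusted p = 0.000211). In homozygous SCFA against control SCFA, 5 of 19 were higher, among them Aqp1 (1.85 ± 0.31, adjusted p = 0.00112) and the urea transporter Slc14a1 (1.14 ± 0.19, adjusted p = 0.00121), and 1 was lower. In homozygous untreated against control untreated, 1 was higher, the complement regulator Cd59a (1.36 ± 0.30, adjusted p = 0.0106), and 2 were lower, among them Aqp1 (-1.10 ± 0.31, adjusted p = 0.0319). That call of Aqp1 was lost without control untreated 2 or 3, any homozygous untreated library or homozygous SCFA 3 (adjusted p up to 0.117), and that of Cd59a without homozygous untreated 1 (0.0501). The interaction was called higher for 4, Aqp1 (2.96 ± 0.44, adjusted p = 0.000846) and Emp3 (1.18 ± 0.23, adjusted p = 0.0035) among them, and lower for 1. Over all genes the interaction was called higher for 13.6% and lower for 11.6%. The shares were 8.89% and 8.47% in homozygous SCFA against control SCFA, and 6.69% and 8.13% in homozygous untreated against control untreated.

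Paralogs that other tissues use were also looked at. Of all genes, 9.58% were called in homozygous SCFA against homozygous untreated and 21.9% in control SCFA against control untreated. The shares were 17.4% in homozygous SCFA against control SCFA, 14.8% in homozygous untreated against control untreated and 25.1% for the interaction. Of 19, 9 passed the filter on low counts, and Rhbg, the Rhag relative of kidney and liver, had 0 counts in all groups. None of the 9 was called in homozygous SCFA against homozygous untreated by edgeR's test (1 had an unadjusted p under 0.05, and DESeq2 and limma-voom each called 1, Tgm2), and 2 were lower in control SCFA against control untreated, Tgm1 (-1.09 ± 0.27, adjusted p = 0.0142) and Ece1 (-0.69 ± 0.18, adjusted p = 0.0182). Ece1 was higher in homozygous SCFA than in control SCFA (0.58 ± 0.18, adjusted p = 0.0429) and Sptbn1, the spectrin beta chain of most other cells, was lower there (-0.54 ± 0.11, adjusted p = 0.00461). Slc4a2, the anion exchanger of many cell types, was lower in homozygous untreated than in control untreated (-0.79 ± 0.25, adjusted p = 0.0449), and the interaction was called for Slc4a2 (1.18 ± 0.35, adjusted p = 0.0248) and Tgm2 (0.96 ± 0.30, adjusted p = 0.0292). Of these paralog calls, that of Sptbn1 held with each library left out. Ece1 was lost in homozygous SCFA against control SCFA without control untreated 3, any control SCFA library or homozygous SCFA 2 or 3 (adjusted p up to 0.109). In control SCFA against control untreated, Ece1 was lost without control untreated 2 or control SCFA 1 or 3 (0.0708), and Tgm1 without control SCFA 2 or 3 (0.0796). Slc4a2 was kept in homozygous untreated against control untreated only without control untreated 1 or homozygous SCFA 1 (otherwise up to 0.159). Its interaction call was kept only without control untreated 1, homozygous untreated 3, control SCFA 1 or homozygous SCFA 1 (otherwise up to 0.0735), and that of Tgm2 only without these 4 or control untreated 3 (otherwise up to 0.0801).

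Transcription factors of the erythroid line did not all move one way. In control SCFA against control untreated, 6 of 12 were lower and none higher (median -0.69), with Klf1 at -1.50 ± 0.24 (adjusted p = 0.00322) and E2f2 at -0.80 ± 0.14 (adjusted p = 0.00422). In homozygous SCFA against homozygous untreated, 2 were higher and 2 lower (median -0.33): Gfi1b was higher (1.17 ± 0.21, adjusted p = 0.00228) and Klf1 lower (-0.89 ± 0.23, adjusted p = 0.024). The Klf1 call was lost without homozygous untreated 2 or 3, or homozygous SCFA 1 or 2 (adjusted p up to 0.0849). In homozygous SCFA against control SCFA, 4 were higher and none lower, with Klf1 at 1.15 ± 0.24 (adjusted p = 0.0043) and Gfi1b at 1.07 ± 0.21 (adjusted p = 0.00288). Klf1 had 8.86, 9.61 and 11.5 CPM in homozygous SCFA, against 5.38, 4.27 and 3.80 CPM in control SCFA. In homozygous untreated against control untreated, none was higher and 4 were lower, with E2f2 at -0.58 ± 0.13 (adjusted p = 0.0136) and Lyl1 at -0.93 ± 0.25 (adjusted p = 0.0259). The call of E2f2 there was lost without control untreated 3 or homozygous untreated 1 or 2 (adjusted p up to 0.082), and that of Lyl1 also without control untreated 2 (up to 0.119). The interaction was called higher for 6, Gfi1b (1.83 ± 0.29, adjusted p = 0.00132) and Gata1 (0.86 ± 0.20, adjusted p = 0.00777) among them. Of all genes, 13% were called lower in control SCFA against control untreated, and 3.96% higher and 5.61% lower in homozygous SCFA against homozygous untreated. The share called higher was 8.89% in homozygous SCFA against control SCFA and 13.6% for the interaction. In homozygous untreated against control untreated 8.13% were called lower.

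Globin, heme and iron uptake genes were often lower under SCFAs. In homozygous mice 11 of 16 were lower (median -0.92), against 5.61% of all genes. In control mice 9 of 16 were lower (median -0.77), against 13% of all genes, and none was higher in either genotype. Alas2, the first enzyme of erythroid heme synthesis, was lower in homozygous SCFA than in homozygous untreated (-2.12 ± 0.15, adjusted p = 4.73e-07) and in control SCFA than in control untreated (-1.18 ± 0.15, adjusted p = 0.000748). The beta globin Hbb-bs was lower in homozygous SCFA than in homozygous untreated (-2.15 ± 0.17, adjusted p = 1.03e-06). In homozygous SCFA against control SCFA, 2 were higher and 7 lower, with Hbb-bs at -2.65 ± 0.17 (adjusted p = 8.35e-08) and Alas2 at -2.08 ± 0.15 (adjusted p = 2.94e-07). In homozygous untreated against control untreated, 2 were higher and 6 lower, with the alpha globins Hba-a2 at -1.74 ± 0.18 (adjusted p = 3.57e-05) and Hba-a1 at -1.77 ± 0.19 (adjusted p = 4.04e-05), near-identical copies whose reads may have been shared. The interaction was called higher for 3 and lower for 7, with Hbb-bs at -1.84 ± 0.23 (adjusted p = 0.000225) and Hbb-bt at -1.68 ± 0.25 (adjusted p = 0.000811). Of all genes, 8.89% were called higher and 8.47% lower in homozygous SCFA against control SCFA. In homozygous untreated against control untreated these shares were 6.69% and 8.13%, and for the interaction 13.6% and 11.6%.

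Erythroid progenitor genes were split. Of 10 tested, 2 were higher and 4 lower in homozygous SCFA against homozygous untreated (median 0.10), with Car2 at -1.09 ± 0.11 (adjusted p = 1.44e-05). In control SCFA against control untreated none was higher and 1 lower, Car2 (-1.27 ± 0.11, adjusted p = 5.23e-05). Homozygous SCFA against control SCFA gave 3 higher and 2 lower, with the fatty acid receptor Cd36 at -2.48 ± 0.21 (adjusted p = 1.59e-06). In homozygous untreated against control untreated, 1 was higher and 2 lower, with Cd36 at -0.95 ± 0.20 (adjusted p = 0.00859), a call lost without homozygous untreated 2 (0.0607). Car1, a carbonic anhydrase, was the higher one (adjusted p = 0.0129), with 7.59, 8.28 and 6.77 CPM in homozygous untreated, against 1.65, 0.805 and 0 CPM in control untreated. For 2 genes the interaction was called higher and for 3 lower, with Gata2 at 1.48 ± 0.27 (adjusted p = 0.0027). Among all genes, 3.96% were called higher and 5.61% lower in homozygous SCFA against homozygous untreated, and 13% lower in control SCFA against control untreated. In homozygous SCFA against control SCFA 8.89% were higher and 8.47% lower. Homozygous untreated against control untreated had 6.69% higher and 8.13% lower, and the interaction 13.6% and 11.6%.

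**Figure D4:**
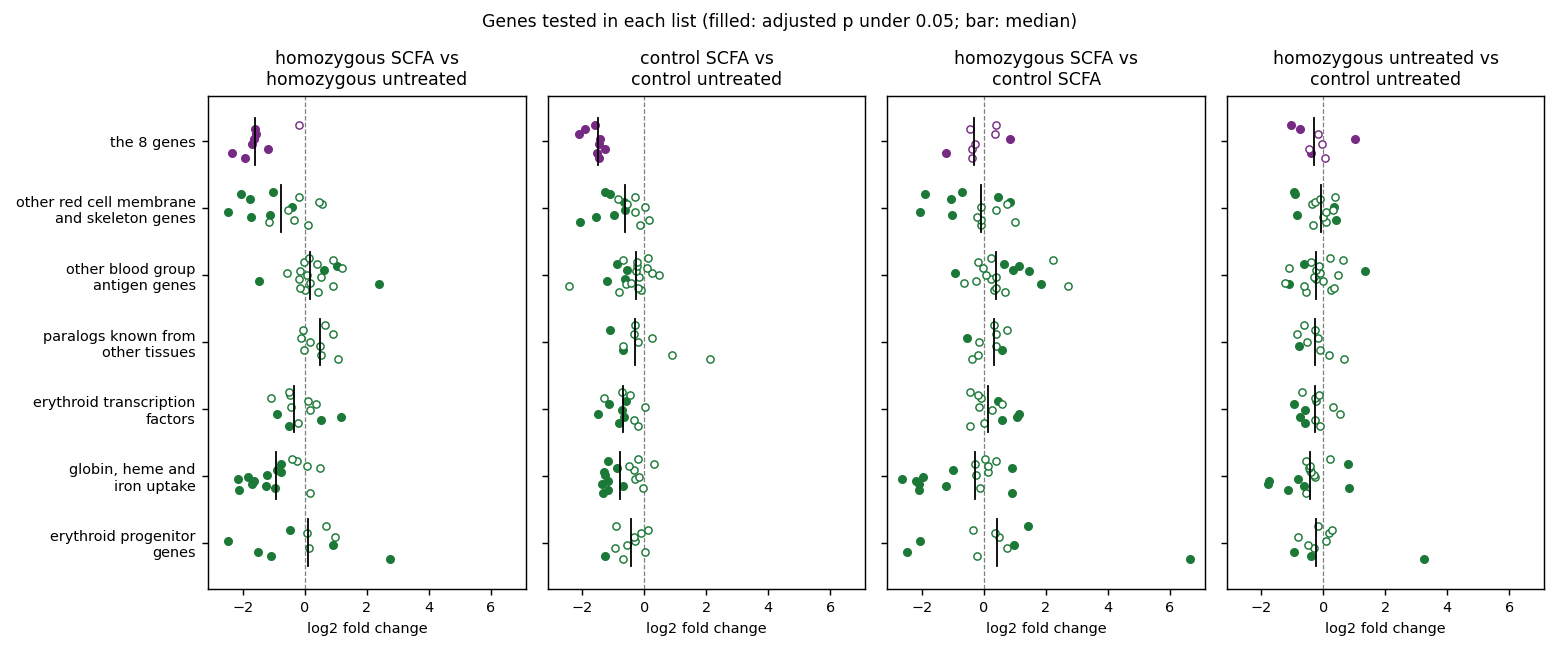
Log2 fold changes (x axis) of every tested gene in the 8 genes and 6 other lists (rows) in 4 comparisons; filled points passed an adjusted p of 0.05 and bars are medians. The 8 genes have medians of -1.62 and -1.50 in both SCFA comparisons, and the erythroid transcription factors have -0.33 and -0.69.

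Relative to the 12 erythroid transcription factors, the mean log2 CPM of the 8 genes was -0.37 ± 0.10 in homozygous SCFA, 0.02 ± 0.19 in control SCFA, 1.02 ± 0.08 in homozygous untreated and 0.90 ± 0.20 in control untreated (SD, n = 3). SCFA libraries did not reach untreated ones, with a highest value of 0.24 in control SCFA and a lowest of 0.68 in control untreated. The marrow cells were a mixture, and which of them gave the reads of these transcription factors was not tested. Relative to the 16 globin, heme and iron uptake genes, the difference was -2.39 ± 0.05 in homozygous SCFA, -2.96 ± 0.08 in control SCFA, -1.82 ± 0.11 in homozygous untreated and -2.10 ± 0.16 in control untreated. On this measure homozygous libraries lay above the control libraries of the same treatment.

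**Figure D5:**
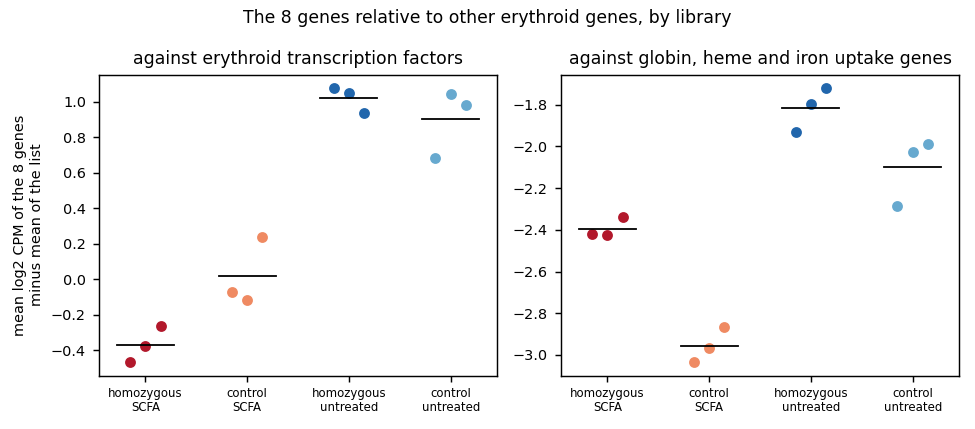
Mean log2 CPM of the 8 genes minus that of the erythroid transcription factors (left) or of the globin, heme and iron uptake genes (right), on the y axis, in each library by group; points are libraries and bars the mean of 3. Against both lists the SCFA libraries lie below the untreated ones, by group means of -0.37 and 0.02 against 1.02 and 0.90 on the left.

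Markers of other cells moved with the groups too, and their part in these results was not tested. Megakaryocyte markers, from the lineage nearest to the erythroid one, summed to 1036 to 1231 CPM in homozygous SCFA, 681 to 760 CPM in control SCFA, 499 to 621 CPM in homozygous untreated and 482 to 559 CPM in control untreated. Of 6, 5 were higher and none lower in homozygous SCFA against homozygous untreated, and 3 were higher and 1 lower in control SCFA against control untreated. Of all genes 3.96% were called higher and 5.61% lower in the former comparison, and 8.89% higher and 13% lower in the latter. B lineage markers, 9 of 9 of them lower in homozygous SCFA than in control SCFA, summed to 143 to 160 CPM in homozygous SCFA, 1459 to 1531 CPM in control SCFA, 504 to 538 CPM in homozygous untreated and 1441 to 1511 CPM in control untreated. Rag1 was at 0 counts in homozygous SCFA. In homozygous SCFA against control SCFA 8.47% of all genes were called lower. Of 8 neutrophil markers, edgeR, DESeq2 and limma-voom called 0 in homozygous SCFA against homozygous untreated, and 0 had an unadjusted p under 0.05, and 2 were higher and 4 lower in control SCFA against control untreated. Summed neutrophil levels were 58413 to 68407 CPM in homozygous SCFA, 55610 to 59640 CPM in control SCFA, 56499 to 75229 CPM in homozygous untreated and 35409 to 52885 CPM in control untreated. S100a8 made up much of these sums, at a mean of 35828 CPM in control SCFA and 19945 CPM in control untreated. The sums do not give the direction of each marker.

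Genes whose log2 CPM over the 12 libraries was among the most like the mean of the 8 genes were the kinase Dyrk3 (Pearson r = 0.986), the glycine transporter Slc6a9 (0.977), Pigq (0.971) and the claudin Cldn13 (0.969). Differences between the 4 groups enter these values, which are descriptions. Per gene, the most alike were Ube2o for Slc4a1 (0.988), Tbcel for Epb42 (0.982), Bcl2l13 for Sptb (0.976), Slc43a1 for Ank1 (0.943), Dyrk3 for Rhd (0.974), Bsdc1 for Ermap (0.979) and Psrc1 for Kel (0.951). Rhag had the lowest best likeness, 0.915 with the nucleotide hydrolase Itpa, which averaged 20.6 CPM in homozygous SCFA, 19.6 CPM in control SCFA, 26.9 CPM in homozygous untreated and 22.3 CPM in control untreated. Dyrk3 averaged 21.6 CPM in homozygous SCFA, 21.8 CPM in control SCFA, 63.3 CPM in homozygous untreated and 62.5 CPM in control untreated.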

How the data were processed

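Per the labels' protocols, libraries were prepared with Clontech's low-input poly(A) method after extraction by Qiagen RNeasy Plus Micro. Per the submitters' processing notes, STAR and featureCounts were used with mm10; their versions, the gene models and strandedness are not given in those sources. The authors' deposited table has whole-number counts per gene symbol, not normalized, for 12 libraries with totals of 16954355 to 20748995; 22077 of 55291 symbols had 0 counts throughout.

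The test was edgeR's quasi-likelihood test (version 4.0.16, R 4.3.3; TMM scaling, genes kept by filterByExpr, all 12 libraries in 1 fit with 4 group means, Benjamini-Hochberg adjustment over 15674 genes, calls at an adjusted p under 0.05); this step was tested on simulated data. Fold changes are given on the log2 scale with an SE. This SE was derived from the test, as the absolute log2 fold change divided by the square root of its F statistic. CPM use TMM-scaled totals, log2 CPM a prior count of 2, and RPKM the exon length in GENCODE M21, which holds 96.4% of the symbols and gave the coordinates. Python 3.11.15 with pandas 2.3.3 and matplotlib 3.10.9 served for tables and figures.

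The 8 genes and the gene lists were chosen with earlier results of these data known. Named genes of a list are the 2 with the smallest p per comparison among those called, and genes of like pattern those with the highest r, unnamed gene models passed over. Ahsp and Rhex were not used here, and the values of some genes the rule names, which the counts include, are not reported here.

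Libraries of a group differed beyond sampling noise (chi-square over degrees of freedom 11.6 to 84.8), and each library counted as 1 sample. Alternatives were RLE factors, no filter, DESeq2 1.42.0, limma-voom (limma 3.58.1) with quality weights, a fit of the compared libraries alone, a block for the replicate number, and leaving out each library.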

Additional observations from a re-analysis of the deposited data

Results flagged for a closer look

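The SCFA difference differed between genotypes for 2 of the 8 genes by edgeR's interaction test. This is about the share that the test called among all genes (25.1%), so the count does not set the 8 genes apart. For Epb42 the log2 difference in homozygous mice minus that in control mice was -0.82 ± 0.17 (adjusted p = 0.00549), with every library lower under SCFAs in both genotypes. For Sptb it was 1.42 ± 0.43 (adjusted p = 0.0269). That call was lost in 6 of the 12 fits that left out a library, with values of 1.06 to 1.75 over the 12.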

How the results depend on the processing

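The counts of 8 and 7 genes lower under SCFAs, and the call of Rhag in both genotype comparisons, stayed past the threshold in the 12 fits without 1 library and in the 6 other alternatives. Treatment is confounded with date, and 3 libraries a group limit precision.

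Over all genes, the count called in homozygous SCFA against control SCFA was 2722, 4762 by limma-voom and 1431 to 3282 without 1 library; of the 8 genes, 1 was lower, 2 with only the compared libraries and 1 to 2 without 1 library. For homozygous untreated against control untreated it was 2323, 3922 by limma-voom, 914 with only the compared libraries and 770 to 4333 without 1 library; 3 of the 8 genes were lower, 0 with only the compared libraries and 0 to 4 without 1 library. For homozygous SCFA against homozygous untreated it was 1501, 2310 by DESeq2, 2988 by limma-voom and 743 to 1998 without 1 library. For control SCFA against control untreated it was 3432, 2035 with only the compared libraries and 613 to 5090 without 1 library. The interaction was called for 3938 genes, and for 2455 to 5379 without 1 library; 1 of the 8 genes was higher, and 0 to 2 without 1 library. The cause of these shifts was not tested.

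Uncalled values that changed sign without 1 library ranged from -0.15 to 0.24 for Ank1, -0.35 to 0.0095 for Rhd and -0.24 to 0.11 for Kel in homozygous untreated against control untreated. For the interaction they ranged from -0.36 to 0.024 for Rhag, -0.020 to 0.33 for Ermap and -0.52 to 0.0039 for Kel. In homozygous untreated against control untreated, Epb42 was called in 1 of the 12 fits, without control untreated 1, Slc4a1 in 8 and Sptb in 6. Ermap was called there by limma-voom (adjusted p = 0.0153) and without control untreated 1 (0.00658). Slc4a1 passed in homozygous SCFA against control SCFA with only the compared libraries (adjusted p = 0.0331) and without control untreated 1 (0.0454), and for the interaction without control untreated 1 (0.0359).

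Same-numbered libraries did not deviate together (r -0.114 to 0.0432 across genes), so the numbers are not known to pair samples. With the replicate number as a block the counts were 2447, 2067, 1282, 3249 and 3715 in the order above, and of the 8 genes Epb42 lost its call in homozygous untreated against control untreated (adjusted p = 0.0516).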
